A study of Mus musculus with 2 samples.

Results

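Putative YUMMER1.7 tumor cells were the cells with UMIs of at least 3 of 6 marker genes, Hmga2, Nefl, Btc, Nppb, Grem1 and Sox9, in 2 single-cell RNA-seq libraries sorted from tumors as endothelial cells (ECs). The cells were thus chosen by measured UMIs of these genes. A unique molecular identifier (UMI) counts 1 captured mRNA molecule. Cells needed at least 500 detected genes, at most 10% of UMIs from mitochondrial genes, no UMI of Ptprc (the pan-leukocyte antigen CD45) and fewer than 4 of the lung fibroblast genes Inmt, Mfap4, Ogn and Gsta3. The rule took 504 of the 16123 cells that passed the quality filters, 280 in the control and 224 in the Dnmt1iECKO library. Of these, 313 cells had at least 10000 UMIs (136 control, 177 Dnmt1iECKO) and are called deep, and 191 had fewer (144 and 47) and are called shallow.

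YUMMER1.7 melanoma cells had been injected into female mice of 8 to 10 weeks, and live CD31+ CD45- cells were sorted from the dissociated tumors. The labels give the control mice as C57BL/6 and the other mice as Cdh5CreERT2;Dnmt1fl/fl;ZsGreenlsl/lsl, in which the endothelial Cdh5 promoter drives a tamoxifen-activated Cre that deletes Dnmt1. In the methods of the study the controls also carried a Cdh5-driven Cre and the ZsGreen reporter, and the labels give subcutaneous tumors where the methods give lung tumors after tail vein injection. Tumors of 3 mice were pooled into 1 library per group, so no test between groups was possible and no p-value is given, intervals below cover counting error only, and genotype cannot be told apart from library. The control library held 9301 cells and 123830489 UMIs, and the Dnmt1iECKO library 9522 cells and 141433493 UMIs.

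Melanomas arise from melanocytes, cells of the neural crest that make pigment through genes driven by the factors Mitf and Sox10. Melanoma cells with active Braf signaling can lose this program and turn to a dedifferentiated, mesenchymal state with AP-1 factors, matrix genes and inflammatory chemokines. YUMMER1.7 is an ultraviolet-irradiated derivative of YUMM1.7, a male C57BL/6 mouse line engineered to carry activated Braf and to lack Cdkn2a. Because the cells were injected, the Cre of the host is not carried by them.

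The 6 markers cover several functions. Hmga2 (ENSMUSG00000056758, chr10:120361275-120476469 in GRCm38) encodes an oncofetal chromatin protein, and its locus overlaps 1700006J14Rik and 9230105E05Rik among the counted genes. Sox9 (chr11:112782224-112787760) encodes a neural crest and cartilage transcription factor, Grem1 (chr2:113746164-113758646) a secreted BMP antagonist, and Btc (chr5:91357261-91402994) a ligand of the EGF receptor. Nefl (chr14:68083863-68089095), which overlaps Nefm in the annotation, encodes the light neurofilament chain, and Nppb (chr4:147985788-147987205) the B-type natriuretic peptide. These genes chose the cells, so their levels are a description. Levels are CPM, the summed UMIs of a gene per 1000000 UMIs of the same cells, with the control value first throughout unless said otherwise. Over the deep cells Hmga2 stood at 1846 CPM (1820 to 1872, exact Poisson 95% interval) and 1666 CPM (1646 to 1687), with UMIs in 99.3% and 100% of cells. Grem1 stood at 244 and 204 CPM, Sox9 at 220 and 172, Nefl at 143 and 110, Nppb at 133 and 91.6, and Btc at 77.6 and 40.1 CPM.

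All 6 markers were found in 52 deep control cells and 44 deep Dnmt1iECKO cells, 5 in 40 and 53, 4 in 25 and 40, and 3 in 19 and 40. At the limit of the rule, deep cells with 3 markers had 851 and 908 CPM of Hmga2, 23.6 and 30.2 CPM of the Y-linked genes Ddx3y, Uty, Kdm5d and Eif2s3y together, and 170 and 111 CPM of Xist, the RNA of the inactive X chromosome. The 30 control and 29 Dnmt1iECKO cells just outside, with 2 markers, had 531 and 449 CPM of Hmga2, 7.32 and 8.18 CPM of Y-linked genes and 326 and 374 CPM of Xist. Cells with 4 markers had 1995 and 2331 CPM of Hmga2 and 4.95 and 8.54 CPM of Xist, so Xist was lower with each step from 2 to 4 markers. Hmga2 was higher with each of these steps, but it is among the counted markers, so nothing is read from its rise. Cells with all 6 markers had 1506 and 1478 CPM of Hmga2 and 8.33 and 2.27 CPM of Xist. Another 16 control and 38 Dnmt1iECKO cells had 3 or more markers but also Ptprc UMIs and were left out, as were 1 cell of each library with all 4 fibroblast genes. Of 29 barcodes that both libraries held, none belonged to a control and 2 to a Dnmt1iECKO cell of the rule.

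Depth split the cells of the rule into 2 kinds. Deep cells had a median of 72871 UMIs and 7717 genes in the control and 78625 UMIs and 8000 genes in the Dnmt1iECKO library, against medians of 10421 and 10634 UMIs over all cells past the filters. Their mitochondrial share had a median of 2.48% and 2.34%. Shallow cells had medians of 2560 and 2768 UMIs, and a mitochondrial share with a median of 0.0279% and 0.0151%. A share under 0.2% was found in 125 of 144 shallow control cells (86.8%, exact Clopper-Pearson 95% interval 80.2 to 91.9) and in 46 of 47 shallow Dnmt1iECKO cells (97.9%, 88.7 to 99.9). Among other cells of fewer than 10000 UMIs this share was 7.02% and 10.7%, and among the deep cells 14.0% and 3.39%. Malat1, a nuclear RNA, gave a median of 0.224% and 0.246% of UMIs in shallow against 0.977% and 1.07% in deep cells. Shallow cells thus held Hmga2 mRNA (1136 and 1016 CPM) with little mitochondrial and Malat1 RNA, and whether they were whole cells was not tested. All values below are of the deep cells unless stated.

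**Figure D1:**
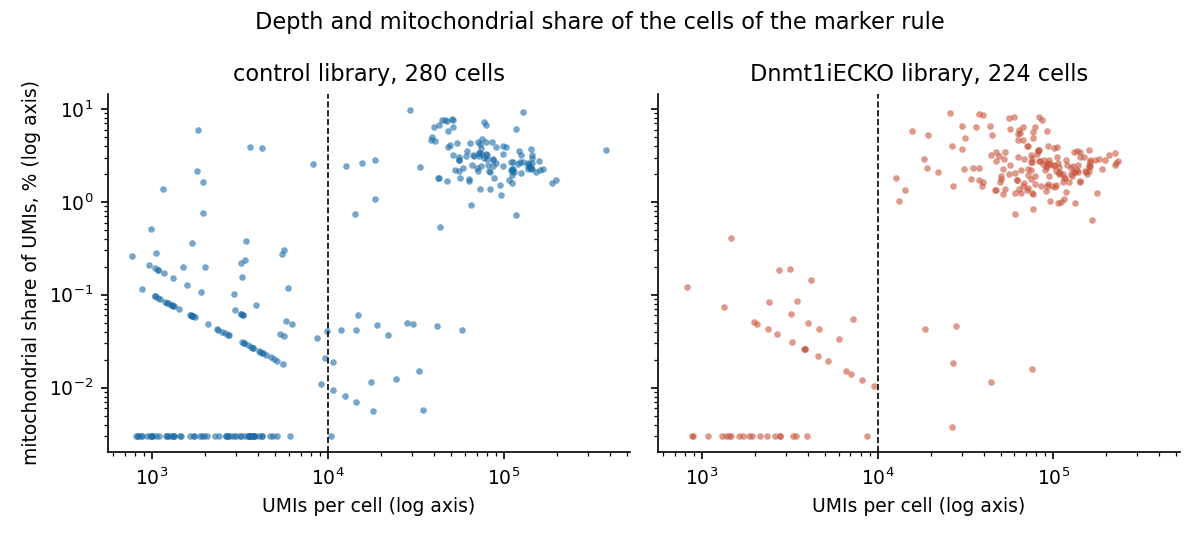
Mitochondrial share of UMIs against UMIs per cell for the 280 control and 224 Dnmt1iECKO cells of the rule, both axes logarithmic, cells at 0 drawn at 0.003%, with a dashed line at 10000 UMIs. Cells right of the line sit mostly near 2%, and most of those left of it lie below 0.2%.

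Y-linked genes and Xist were used to check the label, since the line is male and the mice were female. Neither was part of the rule. Ddx3y (chrY:1260771-1286629), an RNA helicase gene, stood at 34.4 and 30.1 CPM in the deep cells, against 0.375 and 0.238 CPM in the endothelial gate. This gate held the 4904 control and 1940 Dnmt1iECKO cells outside the rule with UMIs of both Cdh5 (VE-cadherin) and Pecam1 (CD31) and none of Ptprc, less those with all 4 fibroblast genes. Uty (chrY:1096861-1245759), a histone demethylase gene, stood at 21.1 and 18.9 CPM against 0 and 0.0794. Kdm5d (chrY:897788-956786) stood at 3.91 and 6.08 CPM, and Eif2s3y had 1 UMI in the control and 0 in the Dnmt1iECKO library. After thinning each cell to 10000 UMIs, 37 of 136 control cells (27.2%, 19.9 to 35.5) and 53 of 177 Dnmt1iECKO cells (29.9%, 23.3 to 37.3) had a Y-linked UMI, against 0.470% and 0.493% in the endothelial gate. Unthinned, the shares were 58.8% and 55.9%, against 0.902% and 0.788% of the gate cells that were thinned, whose medians were 15260 and 15873 UMIs.

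The Y-linked UMIs did not mark every deep cell. Xist was absent with Y UMIs present in 76 control and 84 Dnmt1iECKO cells, and the reverse held in 16 and 19 cells. Both were found in 4 and 15 cells and neither in 40 and 59. Among cells of at least 50000 UMIs without Xist, 24 of 85 control cells (28.2%) and 40 of 112 Dnmt1iECKO cells (35.7%) had no Y-linked UMI. Only 5 and 4 such cells had 1 or 2, and the 56 and 68 cells with at least 3 had medians of 6.50 and 8.50. The cells thus fell into a group at 0 and a group well above it in both libraries. At least 5 Xist UMIs were found in 10 of 136 control cells (7.35%, 3.58 to 13.1) and 14 of 177 Dnmt1iECKO cells (7.91%, 4.39 to 12.9). In the endothelial gate 97.0% and 97.7% of thinned cells had an Xist UMI, against 5.88% and 10.7% of the deep cells. Of the cells with Xist and no Y UMI, 6 of 16 and 8 of 19 had fewer than 5 Xist UMIs, and free RNA of the surrounding cells, which had 585 and 675 CPM of Xist in the endothelial gate, was not told apart from their own. Sex-linked RNA thus did not decide the label for every cell.

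**Figure D2:**
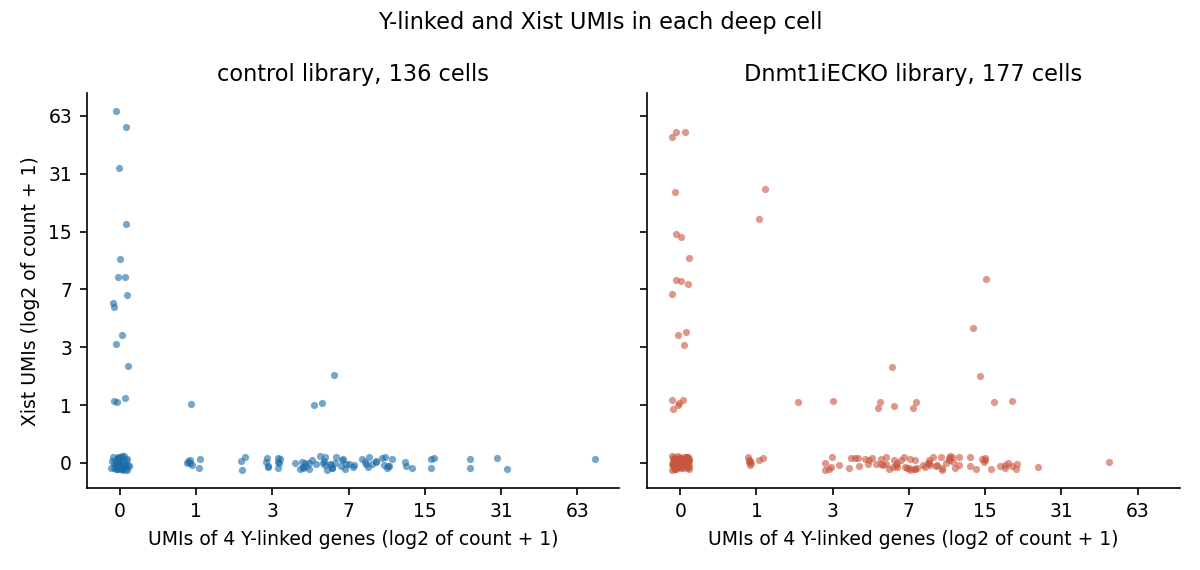
UMIs of 4 Y-linked genes (horizontal) and of Xist (vertical) in each deep cell, 136 control and 177 Dnmt1iECKO cells, on a log2 scale of the count plus 1 with small random offsets. Most cells lie along one axis or at the origin: 76 and 84 have only Y-linked UMIs, 16 and 19 only Xist UMIs, and 40 and 59 neither.

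Pigment cell genes were nearly absent. Of the 15 melanocyte genes, Sox10, Tyrp1, Dct, Mlana and Slc45a2 had 0 UMIs over all deep cells, and 3 of the 15 had at least 100 UMIs, among them Mitf. Mitf stood at 22.7 and 32.7 CPM, close to the 27.9 and 22.2 CPM of the endothelial gate. Genes of the dedifferentiated state were uneven: 10 of 16 were at least 2-fold over the endothelial gate in both libraries, where 22.6% of all genes tested were, and 5 were at least 2-fold under it (Nes, Snai2, Zeb1, Mcam and L1cam). Cd44, the hyaluronan receptor, stood at 859 and 822 CPM against 50.7 and 49.9. Fosl1, an AP-1 factor, stood at 414 and 391 CPM against 6.10 and 6.63, and the mesenchymal factor Twist1 at 169 and 147 against 0.929 and 0.357. The receptor kinase gene Axl had UMIs in 89.7% and 97.7% of cells. Ngfr, a marker of neural crest-like melanoma, had 1.30 and 0.320 CPM. These genes were not part of the rule, but they were measured in the same cells and are given without a test.

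Of 15 genes downstream of Braf and MAPK signaling, 8 stood at least 2-fold over the endothelial gate in both libraries and 1 at least 2-fold under it, Epha4 (1.86 and 1.92 CPM against 75.3 and 77.2). The feedback genes Dusp6 (54.3 and 43.7 CPM against 88.4 and 69.7) and Spry4 (29.1 and 22.4 against 48.6 and 45.6) also stood below the gate. Ccnd1, which encodes the G1 cyclin D1, had 1384 and 1240 CPM against 557 and 551 in the endothelial gate. Phlda1 had 560 and 480 CPM against 139 and 101, and the ETS factor genes Etv1 and Etv4 had 127 and 117 and 42.4 and 44.4 CPM against less than 9 CPM in that gate. Beside Btc the EGF family ligands Ereg (242 and 180 CPM), Hbegf (272 and 152) and Areg (122 and 96.2) were found, while the receptor genes Egfr (18.1 and 31.5) and Erbb2 (4.09 and 3.14) were lower. In the BMP and TGF-beta list, Bmp2 stood at 404 and 339 CPM beside its antagonist Grem1, and Inhba at 68.5 and 93.5. Among oncofetal genes, Igf2bp2, an RNA-binding protein gene, had 129 and 120 CPM and Hmga1 101 and 140, while Igf2 and Lin28b were under 1 CPM. Of the loci changed in the line, Cdkn2a had 31 and 30.4 CPM, close to the 28.7 and 24.8 CPM of Cdkn2a in the endothelial gate. Cdkn2b, next to it, had 2.23 and 2.37 against 60.7 and 32.7 CPM. Reads of a 3′ kit outside a deleted part do not check a deletion, and the part of each gene that gave the UMIs was not analysed here.

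The 15 genes with the highest ratio over the cells outside the rule included the markers Nefl, Hmga2 and Grem1 themselves. At the head was Kcnh5, a potassium channel gene, with 51.1 and 41.5 CPM against 0.397 and 1.08, found in 66.2% and 61.6% of cells. Wnt7b, a Wnt ligand gene, stood at 96.6 and 88.2 CPM against 1.44 and 2.64. The signaling inhibitor genes Rgs17 (291 and 233 CPM against 4.52 and 7.48) and Rgs20 (68.8 and 59.6 against 1.16 and 2.17) were in the list, with Rgs17 UMIs in 94.9% and 90.4% of cells. The others were the splicing factor gene Rbm20, the adhesion gene Cntnap4, the casein gene Csn3, Lbhd2 and the transcripts 4930467D21Rik, 9530003J23Rik, 1700006J14Rik and Platr16. Of the UMIs of Cntnap4 in the control, 43.6% came from 1 cell. Since 1700006J14Rik overlaps Hmga2, its UMIs may not be separate from those of Hmga2.

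**Figure D3:**
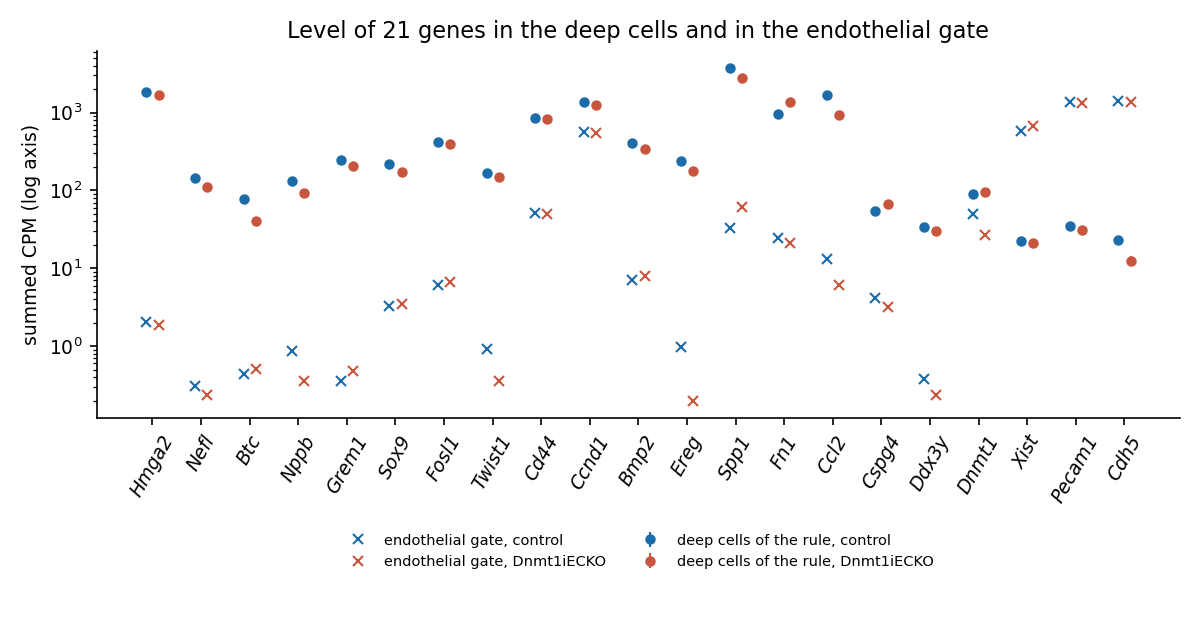
Summed level in CPM, on a log axis, of 21 genes in the deep cells (points, bars for exact Poisson 95% intervals, smaller than the points) and in the endothelial gate (crosses) of each library. The 6 markers, Twist1, Fosl1, Ereg and Ddx3y stand more than 10-fold above the endothelial gate, and Xist, Pecam1 and Cdh5 stand below it.

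The deep cells were split into 8 clusters, a number that was set, on 1500 variable genes, and their leading genes describe the variety of profiles. The largest (101 cells) was led by Ccl7, Nppb and Ibsp, and the next (88 cells) by Ube2c, Birc5 and histone genes of dividing cells. A cluster of 55 cells was led by Apod, Cxcl9, Ifit3 and Ifit1, with 20 of 55 cells holding Y-linked UMIs. A cluster of 44 cells was led by Gm15987, Slc22a23, Tenm4 and Mmp9 and had 4141 CPM of Hmga2. These 4 clusters held 288 of the 313 cells, and 3 of these cells had at least 5 Xist UMIs. The remaining 25 cells held 21 of the 24 cells with that much Xist. Clusters of 9 and 7 cells were led by endothelial genes such as Calcrl, Epas1 and Cldn5, with Cdh5 at 247 and 1219 CPM, and the 9 cells also had 1996 CPM of Hmga2 and so carried both profiles. A cluster of 8 cells had the mesothelial genes Upk3b and Wt1 at 356 and 355 CPM, 2340 CPM of Col1a1 and 71.9 CPM of Hmga2. The last cluster was 1 cell with 1328 CPM of Upk3b. Of the 21 cells with that much Xist, 7 were among the 9 cells that carried both profiles. Those 9 cells had 128 CPM of Xist, which does not decide their label. Xist stood at 508 and 617 CPM in the clusters of 8 and 7 cells and at 1049 CPM in the last cell. These levels go against the label of tumor cells. Between the libraries counts and the leading genes are also given without the cells of at least 5 Xist UMIs. All genes of the cells made the clusters, so their leading genes are a description, and cluster sizes were not tested between libraries.

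The marker genes by which the study kept endothelial cells were present or absent in the deep cells as follows. The study's doublet removal and gene number filter were not applied here. Cspg4 (NG2), a proteoglycan of pericytes and melanoma cells and one of the genes of that filter, stood at 55 and 67.9 CPM, with UMIs in 109 of 136 control cells (80.1%, 72.4 to 86.5) and 148 of 177 Dnmt1iECKO cells (83.6%, 77.3 to 88.7). After thinning the shares were 31.6% and 40.1%, against 2.27% and 1.97% in the endothelial gate. UMIs of Cdh5 or Pecam1 were found in 47.8% and 36.7% of the deep cells, at summed levels of 23.4 and 12.4 CPM for Cdh5 and 35.3 and 30.9 CPM for Pecam1, against 1393 and 1361 and 1374 and 1319 CPM in the gate. With Epcam, Cspg4 and Myh11 excluded and Cdh5 or Pecam1 required, 12 control and 5 Dnmt1iECKO deep cells would pass, together with 27 and 4 shallow cells. They made up 39 of 4922 (0.792%, 0.564 to 1.08) and 9 of 2077 (0.433%, 0.198 to 0.821) of the cells kept that way.

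The share of deep cells was slightly higher in the Dnmt1iECKO library when all cells past the filters were counted. It was 136 of 8021 cells in the control (1.70%, 1.42 to 2.00) and 177 of 8102 in the Dnmt1iECKO library (2.18%, 1.88 to 2.53), a log2 ratio of 0.37 (0.035 to 0.70). The ratio was above 0 under all 11 alternatives, at 0.19 to 0.48, but its interval held 0 under 6 of them, among them at least 4 markers (0.21, -0.15 to 0.58) and the removal of the highest doublet scores (0.32, -0.018 to 0.65). Shallow cells went the other way, at 1.80% (1.52 to 2.11) and 0.580% (0.427 to 0.771), a log2 ratio of -1.63 (-2.14 to -1.15). The denominators differed in kind, because cells with Ptprc UMIs made up 18.3% of the control and 58.4% of the Dnmt1iECKO cells past the filters. Among cells without Ptprc UMIs the deep share was 2.07% (1.74 to 2.45) and 5.25% (4.52 to 6.05), and set against the endothelial gate it was 136 of 5040 (2.70%) and 177 of 2117 (8.36%). These shares were set by the CD31+ CD45- sort as well as by the tumors, and these cannot be told apart.

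Dnmt1, the maintenance DNA methyltransferase gene (chr9:20907209-20959888), was checked first between the libraries. It had 976 UMIs in the control deep cells (90.8 CPM, 85.2 to 96.7) and 1474 UMIs in the Dnmt1iECKO deep cells (94.4 CPM, 89.6 to 99.3), with 0.055 (-0.062 to 0.17) as their log2 ratio. Dnmt1 in the endothelial gate was at 49.6 and 27.2 CPM (log2 ratio -0.87, with an interval from -0.99 up to -0.75), and the difference between these ratios was not tested. A 3′ count need not show the deletion of a floxed exon. A thinned Dnmt1 UMI was found in 47.1% and 46.3% of the deep cells and in 35.3% and 22.8% of the gate. Its partner Uhrf1 stood at 43.5 and 40.4 CPM in the deep cells (log2 ratio -0.11, -0.28 to 0.067) and Dnmt3a at 19.5 and 17.5 CPM. Germline genes that DNA methylation keeps silent were at 0 UMIs in 11 of 18 cases, and only Rhox5 had at least 100 UMIs, at 4.56 and 11.3 CPM, 42.9% and 30.1% of them from 1 cell of each library.

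Most genes stood at similar levels in the deep cells of both libraries. In the comparisons that follow, a level given against another is that of the Dnmt1iECKO library, and the other that of the control. Of 10396 genes with at least 100 UMIs, 142 were at least 2-fold higher (1.37%) and 72 at least 2-fold lower (0.693%, together 2.06%) in the Dnmt1iECKO than in the control library, and the median log2 ratio was 0.0035. Without the cells of at least 5 Xist UMIs these counts were 80 and 39. Named below are the 10 highest and 10 lowest ratios among genes whose deep cells, in the library with the higher level, also stood above the cells outside the rule, and several rested on few cells. The smooth muscle actin gene Acta2 led them at 79.6 against 11.5 CPM in the control (log2 ratio 2.79, 2.52 to 3.07, and 2.40 without the cells of high Xist), with UMIs in 29.4% and 16.2% of cells. The lipocalin gene Apod stood at 78.4 against 18.4 CPM (2.09, 1.87 to 2.31), with 36.9% of its Dnmt1iECKO UMIs from 1 cell. The histone gene Hist1h2ap stood at 150 against 43.3 CPM (1.80, 1.65 to 1.94), spread over 62 of 177 and 38 of 136 cells. Histone genes have near-identical copies, so reads may be split among them. Ankrd37, a hypoxia-induced gene, stood at 21.2 against 5.02 CPM (2.08), and the integrin gene Itgb8 at 14.5 against 3.54 CPM (2.03, and 1.45 without the cells of high Xist). The matrix genes Tnn, Cemip and Col11a1, the caveolar gene Cavin4 and the transcript 4930447F24Rik completed the 10 highest, with log2 ratios of 1.68 to 2.37. Of the Tnn and Cemip UMIs of the Dnmt1iECKO library, 54.4% and 55.4% came from 1 cell each.

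Interferon and inflammatory genes were prominent among the 10 lowest. Gm30835 had 234 against 32 UMIs (log2 ratio -3.41), but 98.7% and 93.8% of these came from 1 cell of each library. The antiviral genes Rsad2 (61.5 CPM in the control, 7.81 in the Dnmt1iECKO library, -2.98), Ifit1 (128 and 27.6, -2.22) and Ifit2 (78.0 and 29.0, -1.43) and the chemokine gene Ccl5 (331 and 117, -1.50) followed the same order. The keratin gene Krt16 stood at 15.7 and 2.30 CPM (-2.77), and Csf2, which encodes the myeloid growth factor GM-CSF, at 32.2 and 7.43 CPM (-2.12), with Csf2 UMIs in 9 control and 13 Dnmt1iECKO cells. Mmp10, Cgref1 and Gpr149 had log2 ratios of -1.96, -1.90 and -1.50, and each had 40.2% to 54.1% of its control UMIs in 1 cell.

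A single control cell decided much of the interferon difference. This cell had 121069 UMIs, 8144 genes, a mitochondrial share of 2.53%, 4 of the 6 markers, 6 Y-linked UMIs and 2 Xist UMIs. It gave 720 of the 1379 control UMIs of Ifit1 (52.2%), 62.8% of those of Rsad2, 52.9% of Ifit2, 48.4% of Ccl5 and 31.4% of Cxcl10. Without it the log2 ratio was -1.17 for Ifit1 (-1.35 to -0.99), -1.57 for Rsad2 (-1.89 to -1.25), -0.36 for Ifit2 (-0.56 to -0.16) and -0.57 for Ccl5 (-0.66 to -0.47). The nucleotide kinase gene Cmpk2 moved from -1.60 to -0.20 (-0.58 to 0.19). The type I interferon list summed to 1835 and 1683 CPM, and to 1486 CPM in the control without this cell, so the order of the libraries turned.

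Counted cell by cell, type I interferon UMIs were more frequent in the Dnmt1iECKO deep cells. After thinning to 10000 UMIs the list had a median of 7 UMIs per control cell and 12 per Dnmt1iECKO cell, with highest values of 317 and 113. At least 10 UMIs were found in 56 of 136 control cells (41.2%, 32.8 to 49.9) and 93 of 177 Dnmt1iECKO cells (52.5%, 44.9 to 60.1), intervals that overlapped. The median log2 ratio over its 27 genes tested was 0.16, against 0.0035 over all genes, with 17 above 0, where 50.8% of all genes tested were, and 1 past 2-fold higher and 5 past 2-fold lower. Irf7, the factor that amplifies type I interferon responses, stood at 23.4 against 10.9 CPM (1.11, 0.80 to 1.42), Bst2 (tetherin) at 489 against 360 CPM (0.44) and Zbp1, a nucleic acid sensor gene, at 135 against 90.8 CPM (0.57). Isg15 stood lower, at 253 against 394 CPM (-0.64, and -0.26 without the single cell).

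**Figure D4:**
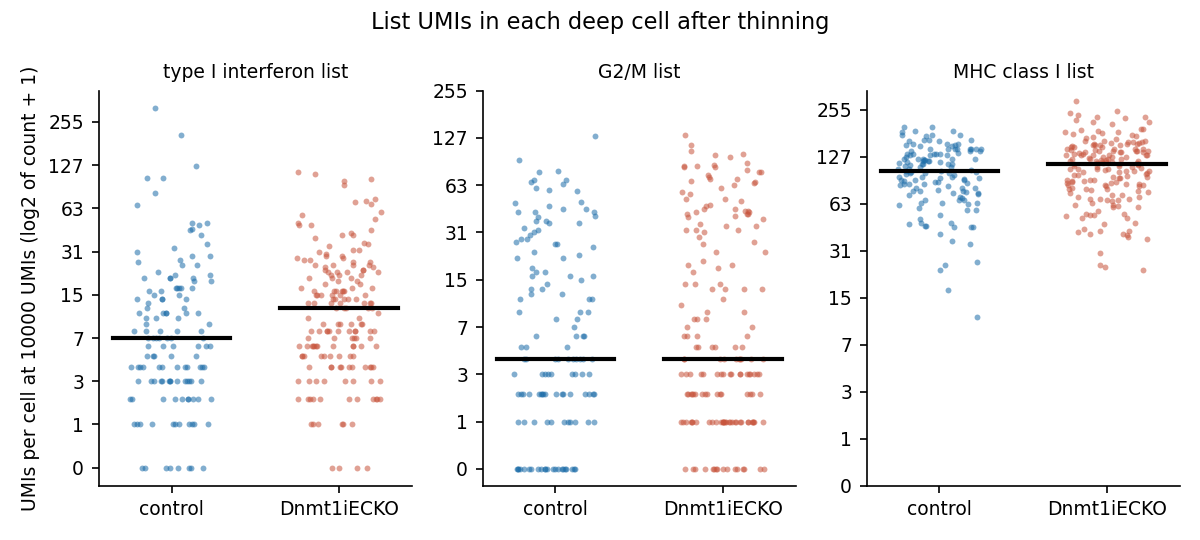
UMIs of the type I interferon, G2/M and MHC class I lists in each deep cell after thinning to 10000 UMIs, on a log2 scale of the count plus 1, with black bars at the medians. One control cell stands at 317 in the first panel while the medians are 7 and 12. The medians of the G2/M list are 4 in both libraries.

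Genes of antigen presentation and of the IFN gamma response were mostly higher in the summed UMIs of the Dnmt1iECKO deep cells. The cluster led by Apod, Cxcl9 and Ifit3 held 17 control and 38 Dnmt1iECKO cells, with a type I list of 5198 CPM, fibroblast markers of 786 CPM and pericyte markers of 237 CPM, and its part in these values was not tested. Of 17 MHC class I genes, 16 had a log2 ratio above 0 and 16 an interval above 0 (18.6% of all genes tested), with a median of 0.25. B2m, the invariant light chain, stood at 3965 against 3467 CPM (0.19, 0.17 to 0.21), H2-K1 at 1383 against 1161 (0.25), the peptide transporter gene Tap1 at 83.6 against 58.5 (0.51, 0.38 to 0.65) and the immunoproteasome gene Psmb8 at 443 against 348 (0.35). In the endothelial gate H2-K1 had 1792 and 1799 CPM and B2m 4724 and 4919. Of 27 IFN gamma response genes, 25 had a ratio above 0 (50.8% of all genes tested) and 21 an interval above 0. The median of the list was 0.49. Per thinned cell this list differed little, with medians of 17 and 20 UMIs and at least 10 UMIs in 68.4% (59.9 to 76.1) and 70.1% (62.7 to 76.7) of cells. The GTPase gene Gbp2 stood at 326 against 232 CPM (0.49) and the GTPase gene Iigp1 at 425 against 319 (0.42). The T-cell chemokine gene Cxcl9 stood at 100 against 53 CPM (0.92, 0.78 to 1.06), with 52.5% of the control UMIs from 1 cell. Cd274 (PD-L1) stood at 49.5 against 27.9 CPM (0.83, 0.63 to 1.02), and 24.1% of its Dnmt1iECKO UMIs came from 1 cell. Cxcl10 went the other way, at 393 against 789 CPM (-0.48 without the cell of high Ifit1, and 2-fold lower with it).

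The MHC class II genes of that list stood far below their endothelial levels. Cd74 had 67.2 and 123 CPM in the deep cells against 1654 and 1955 CPM in the endothelial gate, and H2-Aa had 15.5 and 32.3 against 450 and 550. The transactivator gene Ciita had 1.40 and 1.22 CPM. The 9 immune markers summed to 23.2 and 44.4 CPM in the deep cells, beside the larger share of Ptprc cells in the Dnmt1iECKO library, and their part in the class II values was not tested. The surfactant gene Sftpc, a product of alveolar cells, had 26.3 and 9.86 CPM against 2005 and 2250 in the endothelial gate. The 12 interferon receptor and JAK genes had a median log2 ratio of -0.017, with Ifngr1 at 48.8 and 47.8 CPM and Ifnar1 at 39.0 and 34.8 CPM. Of 9 checkpoint and costimulator genes tested, 4 had a ratio above 0 (50.8% of all genes tested). Among these 4 were Cd274 and Cd47 (227 against 200 CPM). Cd80 had 33.0 and 31.3 CPM.

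**Figure D5:**
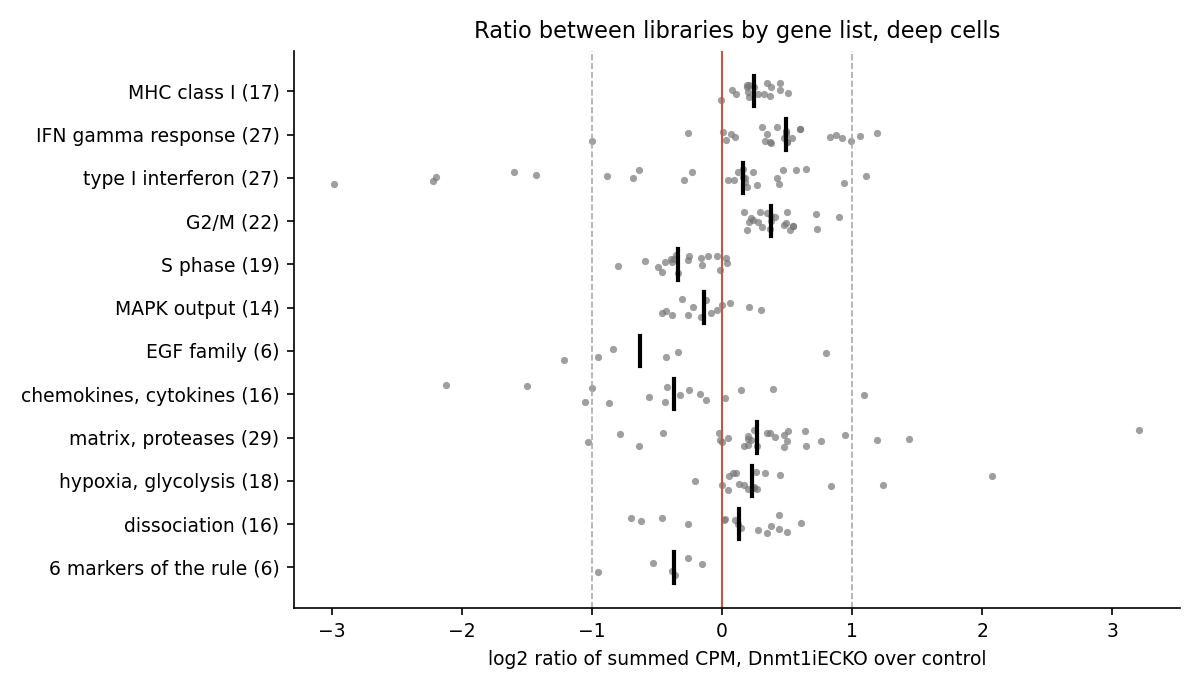
Log2 ratio of summed CPM, Dnmt1iECKO over control, of each gene tested (grey points) in 12 lists, with the median of each list (black bars), the number of genes tested in brackets, the median over all genes tested (red line) and 2-fold either way (dashed). Genes at 0 UMIs in a library are not drawn. MHC class I and G2/M genes lie almost all right of 0, and S phase genes almost all left of it.

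The G2/M and S phase lists went in opposite directions. All 22 G2/M genes had a ratio above 0 and 20 an interval above 0 (18.6% of all genes tested), with a median of 0.38. Topoisomerase gene Top2a stood at 555 against 430 CPM (0.37, 0.32 to 0.42), the ubiquitin-conjugating enzyme gene Ube2c at 323 against 231 (0.48) and the spindle gene Nusap1 at 61.1 against 32.8 (0.90, 0.72 to 1.08). Of 19 S phase genes, 17 had a ratio below 0 and 12 an interval below 0 (17.4% of all genes tested), with a median of -0.34. Pcna, the replication clamp gene, stood at 128 against 168 CPM (-0.39, -0.49 to -0.30), Tyms at 57.0 against 80.0 (-0.49) and the cyclin gene Ccne2 at 18.6 against 32.4 (-0.80). Per thinned cell the G2/M list had a median of 4 UMIs in both libraries, and at least 10 UMIs were found in 39.7% (31.4 to 48.4) and 39.0% (31.8 to 46.6) of cells. The share of cells with that many G2/M UMIs therefore did not differ beyond its interval, while the upper quartile was 25.2 and 34.0 UMIs. For the S phase list at least 10 UMIs were found in 36.8% (28.7 to 45.5) and 27.1% (20.7 to 34.3) of cells.

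Chemokine and EGF family ligands were mostly lower in the summed UMIs of the Dnmt1iECKO deep cells. Of 16 chemokine and cytokine genes tested, 12 had a ratio below 0 and 11 an interval below 0 (17.4% of all genes tested). The median was -0.37. Per thinned cell this list differed little, with medians of 28 and 25 UMIs and at least 10 UMIs in 84.6% and 84.2% of cells. The control cell of high Ifit1 gave 13.0% of the control UMIs of the list. The monocyte chemokine gene Ccl2 stood at 928 against 1700 CPM (-0.87, and -0.72 without the cell of high Ifit1), the neutrophil chemokine gene Cxcl1 at 694 against 867 (-0.32) and the cytokine gene Lif at 11.5 against 23.8 (-1.05). Mif stood higher, at 631 against 568 CPM (0.15). Of the 6 EGF family genes tested, 5 had an interval below 0, 1 of them the marker Btc that chose the cells. Hbegf stood at 152 against 272 CPM (-0.84, and -1.19 as a mean over cells) and Nrg1 at 24.8 against 57.5 CPM (-1.21, but -0.30 as a mean over cells). Egfr was higher (0.80, and 1.09 as a mean over cells, but 0.25 without the cells of high Xist). Of its Dnmt1iECKO UMIs, 30.1% came from 1 cell. Among 17 angiogenic factor genes tested, 13 had a ratio above 0, with a median of 0.27 and the growth factor genes Fgf1 at 0.87 (0.42 without the cells of high Xist) and Fgf2 at 0.75 (-0.10 without them). The MAPK output list had a median of -0.14, with Ccnd1 at -0.16 and Dusp5, a phosphatase gene, at 111 against 153 CPM (-0.46). All 6 markers of the rule had intervals below 0, with Btc at -0.95 and Hmga2 at -0.15. As a mean over cells Btc stood at -1.32, Hmga2 at -0.067 and Grem1 at -0.016. These genes chose the cells, and cells with 3 markers were 19 of 136 in the control and 40 of 177 in the Dnmt1iECKO library. Nothing is therefore read from the marker ratios. A control cell of 382884 UMIs, the most of any cell in the series, gave 14.6% of the Hmga2, 21.9% of the Btc and 43.8% of the Mmp9 UMIs of the control. Without it the log2 ratio was 0.028 for Hmga2, -0.65 for Btc and -0.25 for the gelatinase gene Mmp9, which was -1.03 with it.

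Matrix and hypoxia genes were mostly higher in the summed UMIs of the Dnmt1iECKO deep cells. Of 29 matrix and protease genes tested, 22 had a ratio above 0 (50.8% of all genes tested), with a median of 0.27. Per thinned cell this list had medians of 152 UMIs in the control and 156 in the Dnmt1iECKO library. Fibronectin gene Fn1 stood at 1351 against 955 CPM (0.50, 0.47 to 0.53), Col1a2 at 529 against 338 (0.65) and Spp1 (osteopontin), among the most abundant genes of the cells, at 2747 against 3764 (-0.45). Col1a1 stood at 147 against 15.9 CPM (3.21, 2.99 to 3.44), with 35.9% of the Dnmt1iECKO UMIs from 1 cell and UMIs in 24.3% and 14.0% of cells. The 10 fibroblast markers, Col1a1 among them, summed to 269 CPM in the control and 508 in the Dnmt1iECKO library, with 7 of 7 tested above 0, and the 7 mesothelial markers to 42 and 61.7 CPM, and their part in the matrix values was not tested. After thinning, at least 10 fibroblast UMIs were found in 9 of 136 and 29 of 177 cells. In the hypoxia and glycolysis list, 16 of 18 genes had a ratio above 0 (50.8% of all genes tested), with a median of 0.23. The median per thinned cell went the other way, at 51 UMIs in the control and 47 in the Dnmt1iECKO library. At least 10 UMIs of the list were found in 97.1% and 98.3% of cells. Bnip3, a mitophagy gene, stood at 67.4 against 28.5 CPM (1.24, 1.06 to 1.43), Pgk1 at 278 against 203 (0.45) and Gapdh at 1712 against 1581 (0.11). Vegfa, the endothelial growth factor gene, stood at 108 against 96.4 CPM (0.16, 0.048 to 0.27), below the 326 and 298 CPM of the endothelial gate. Immediate early genes that cell dissociation induces had a median of 0.13 over 16 genes, with Ier2 at 342 against 224 CPM (0.61) and Fos at 661 against 489 (0.44). The heat shock genes Hspa1a and Hspa1b stood at -0.62 and -0.70, but at 0.77 and -0.43 without the cells of high Xist. As a mean over cells they stood at -0.48 and -0.13.

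In the shallow cells several of the genes of the rule stood apart between the libraries. Nefl stood at 252 and 375 CPM, the others lower in the Dnmt1iECKO library. Btc stood at 504 and 76.2 CPM, Nppb at 597 and 102, and Grem1 at 526 and 299, while Hmga2 was at 1136 and 1016 CPM. Since the genes of the rule chose the cells, their levels are a description. G2/M genes summed to 570 and 3462 CPM, against 2058 and 2759 CPM in the deep cells. Top2a stood at 193 and 940 CPM and Ube2c at 44.1 and 426 CPM. These levels rest on 408556 UMIs of 144 cells and 157439 UMIs of 47 cells. Ddx3y had 26.9 and 12.7 CPM, and Xist had 17.1 and 6.35 CPM, which is 7 UMIs and 1 UMI.

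Markers of other cell types differed in level in the deep cells. Fibroblast markers stood above the endothelial gate, at 269 and 508 CPM in sum against 156 and 136. Dcn (decorin, a matrix proteoglycan gene) stood at 160 and 221 CPM, which was most of the sum in the control but not in the Dnmt1iECKO library. Its UMIs were found in 48.5% and 49.7% of thinned deep cells, against 14.6% and 22.3% of the cells with all 4 fibroblast genes and 1.18% and 1.67% of the endothelial gate. The cells with all 4 fibroblast genes were mixed, with Pecam1 UMIs in 67.8% and 52.5% of those thinned. The 10 endothelial markers summed to 158 and 120 CPM against 9391 and 8903 CPM in the endothelial gate, and the 10 epithelial markers to 123 and 115 against 2745 and 2941. Between the libraries 8 of 8 endothelial markers tested had a log2 ratio below 0, 4 of them with an interval below 0. Without the cells of high Xist, Kdr (0.57), Cldn5 (0.72) and Pecam1 (0.0029) lay above 0 and the others tested below it. The 10 pericyte and smooth muscle markers, Acta2 among them, summed to 70.1 and 180 CPM. Of 7 cartilage genes Sox9 alone was past 100 UMIs and 3 were at 0 UMIs. Platelet and erythroid genes summed to 18.8 and 8.07 CPM and keratinocyte genes to 3.07 and 5.12 CPM. The p53 target list had a median log2 ratio of -0.040 over 10 genes, the DNA methylation machinery 0.024 over 7 and the BMP and TGF-beta list -0.075 over 14, each near the 0.0035 of all genes. The oncofetal list (-0.12 over 4 genes) and the intermediate filament list (-0.38 over 5) hold the markers Hmga2 and Nefl that chose the cells, and the latter median is the ratio of Nefl itself, so nothing is read from them.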

How the data were processed

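Sorted CD31+ CD45- tumor cells were profiled with a 10x Genomics 3′ kit, 1 library per group. The matrices of UMI counts were deposited by the authors as Cell Ranger output, and the submitters' processing notes name cellranger 9.0.1 and mm10. The values were raw UMI counts, not normalized. Samples were grouped by their labels.

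Cells of at least 500 genes and at most 10% mitochondrial UMIs were kept, and the marker rule was applied to them. UMIs were summed over cells per library and given as CPM per 1000000 UMIs. With 1 library per group there was no test. Poisson and Clopper-Pearson 95% intervals and exact conditional intervals of log2 ratios, all covering counting error only, were computed with Python 3.11.15, numpy 2.4.6, scipy 1.17.1 and pandas 2.3.3, after the code was tested on simulated data. Genes needed 100 UMIs over the deep cells, and 2-fold was the limit for counts. Shares of cells with a UMI and list sums per cell were taken after 1 random thinning to 10000 UMIs. Clusters used 1500 variable genes, 15 principal components and 8 Ward clusters. Scrublet in scanpy 1.11.5 gave doublet scores, with 0.4% per 1000 cells marked and none removed. Figures used matplotlib 3.10.9. Positions came from GENCODE on GRCm38 (mm10), which held 32158 of 32285 gene identifiers.

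Genes named were those of the rule, examples of 37 lists by level or size of ratio, some further members of the lists chosen after their values were seen, the 15 of highest ratio over cells outside the rule, and the 10 highest and 10 lowest ratios between libraries. Cells, lists and genes were chosen with earlier results of these data known. Alternatives varied the marker number, depth, filters, doublets, scaling, weights and minimum count. Some genes are not reported here.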

Additional observations from a re-analysis of the deposited data

Results flagged for a closer look

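Dnmt1 had a log2 ratio, Dnmt1iECKO over control, of 0.055 (-0.062 to 0.17) in the deep cells of the marker rule and of -0.87 (-0.99 to -0.75) in the endothelial gate of the same libraries. The ratios lay apart, the interval of the first holding 0 and that of the second lying below it, although the first lay above 0 with at least 4 markers (0.15, 0.029 to 0.28) and as a mean over cells (0.12, 0.0024 to 0.24), and the difference between the ratios was not tested, since each group had 1 library.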

How the results depend on the processing

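Of 144 values under alternatives, 131 stayed within the interval of the value reported or within 1.5 times the count reported, 13 did not, and no value whose interval lay off 0 turned its direction. The log2 ratio of Dnmt1, whose interval held 0, was 0.055 and became -0.023 with markers counted after thinning and -0.0020 with a mitochondrial limit of 5%. Its interval lay above 0 with at least 4 markers (0.15, 0.029 to 0.28) and as a mean over cells (0.12, 0.0024 to 0.24). The share of control cells with Y-linked UMIs was 27.2%, 36.8% with at least 4 markers and 37.5% with at least 20000 UMIs. The 142 genes at least 2-fold higher became 66 with at least 4 markers, 77 with markers counted after thinning, 494 when genes of at least 20 UMIs were tested (13085 in place of 10396 genes) and 80 without cells of at least 5 Xist UMIs. The 72 genes at least 2-fold lower became 157 with at least 2 markers, 38 without cells that had Cdh5 and Pecam1 UMIs, 256 with genes of at least 20 UMIs and 39 without cells of at least 5 Xist UMIs. Without cells that had Cdh5 and Pecam1 UMIs the list medians were 0.35 for MHC class I (0.25 reported), 0.70 for IFN gamma (0.49) and 0.18 for G2/M (0.38). Apart from the number of genes tested, the cause was not tested. Leaving out cells by Xist, the control cell with the most Ifit1 UMIs or that with the most UMIs was chosen after seeing the data. No paired analysis was possible because each group had 1 library. The depth of the deep cells limits genes of few UMIs, and no interval covers differences between mice.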

Other observations

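The fibroblast gate, the 430 control and 347 Dnmt1iECKO cells without Ptprc UMIs that had all 4 fibroblast genes, had 254 and 116 UMIs of Dnmt1, with -0.91 (-1.24 to -0.59) as the log2 ratio of CPM. It also held Cdh5 at 682 and 641 CPM, so it was mixed. Adm, the gene of the vasodilator adrenomedullin, stood at 0.837 and 7.17 CPM in the deep cells, from 9 and 112 UMIs, 58.9% of the latter from 1 cell.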
